A study of Rattus norvegicus with 91 samples.

Results

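The interferon response genes described here were Irf7, Irf1, Irf9, Stat2, Ifi27, Mx1, Mx2, Ifit3 and Oas1a, measured in the ventral tegmental area of rats from lines bred in opposite directions for alcohol consumption. The list was chosen on line differences seen in these data, and its members were then taken by symbol, as every probe set whose platform annotation gives exactly 1 gene symbol, equal to a name on this list. A probe set is a group of short array probes read out as 1 value. The rule found 12 probe sets of the 9 genes among 31099 probe sets, of which 20826 had exactly 1 gene symbol. Mx2, Irf9 and Stat2 had a pair of probe sets each. Because of that choice the line differences of these genes are given as a description, without p-values.

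Type I interferons bind a receptor at the cell surface, and the kinases Jak1 and Tyk2 then phosphorylate Stat2. Stat2 acts with Irf9 in a complex that binds a DNA element called the interferon-stimulated response element (ISRE) and switches on antiviral genes. Irf7 is itself induced by interferon and drives further interferon transcription, and Irf1 is induced mainly by interferon gamma, through a gamma-activated site (GAS). In brain, microglia, endothelium, astrocytes and neurons can all respond.

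Each of 91 rats gave 1 array. The lines form 5 pairs, with the high-consumption line given before its low-consumption counterpart: HAD1 (8 animals) and LAD1 (10), HAD2 (8) and LAD2 (9), P (9) and NP (10), AA (10) and ANA (10), sP (8) and sNP (9). Both HAD/LAD pairs are replicate selections from a common heterogeneous stock. Each line is 1 breeding population, so a difference that came with the selection and one that was fixed by chance cannot be told apart. The labels used here give no age, sex or alcohol exposure. Values are RMA signals on the log2 scale. Line differences are log2 differences of the high minus the low line, each with its standard error (SE). The SE rests on the spread between animals pooled over all 10 lines, and not on the compared lines alone.

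Some arrays stood apart from their labels. By the shape of their distributions the arrays fell into sets by line pair, except AA animal 1, which lay with the P and NP arrays, and AA animal 19 and ANA animal 20, which lay with the sP and sNP arrays. In sample order AA animal 1 follows the P and NP arrays, and the other exceptions come just before the sP and sNP arrays. Whether labels of the P, NP, AA, ANA, sP and sNP arrays were displaced against the values was not tested. If they were, lines are mixed within these pairs in the comparisons below. LAD1 animal 37 was nearer the HAD1 mean than the LAD1 mean at 1141 of the 1345 probe sets (84.8%) that differed between HAD1 and LAD1 when it was left out. The dopamine neuron marker Th, tyrosine hydroxylase, was between 13.32 and 15.26 in the other 8 lines, from 9.12 to 14.95 in P animals and from 8.23 to 14.88 in NP animals. The lowest were P animal 10 and NP animal 8, in which the dopamine transporter Slc6a3 was at 8.45 and 7.98. The Gapdh control probe sets, whose 3'-minus-5' gap grows as RNA is degraded or copied less fully, gave gaps from 1.55 to 2.139 in HAD1 and LAD1, from 2.93 to 4.03 in HAD2 and LAD2, and from 0.088 to 0.635 in the other lines. Levels were therefore compared only within a pair.

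Promoter sequences are shown for the genes whose results follow, because the ISRE and GAS are the elements through which interferon acts. RefSeq promoters on the GRCr8 build (250 bases before to 50 after the annotated start) were matched for 8 of the 9 genes, Mx2 being the exception. Each was searched on both strands for GAAANNGAAA, a core of the ISRE, and for TTCNNNGAA, the GAS. The first was in 4 of the 8 and in 3.92% of all 33469 promoters of that length, and the second in 3 of the 8 and in 8.87% of all. Of 84 promoters of other interferon pathway genes, 41.7% held the ISRE core and 20.2% the GAS. Capitals mark the ISRE core in the first 4 lines and the GAS in the last, all read along the strand of the gene. The Irf7 stretch is chr1:205800073-205800102 on the minus strand, with its match 69 bases before the start. The others lie on the plus strand: Ifi27 at chr6:128355113-128355267, with matches at 169 and 84 bases, Ifit3 at chr1:241527252-241527321, 44 bases, Oas1a at chr12:41330415-41330444, with matches at 41 and 35 bases that overlap, and Irf1 at chr10:38417763-38417831, 142 bases.
Irf7: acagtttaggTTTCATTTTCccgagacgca
Ifi27: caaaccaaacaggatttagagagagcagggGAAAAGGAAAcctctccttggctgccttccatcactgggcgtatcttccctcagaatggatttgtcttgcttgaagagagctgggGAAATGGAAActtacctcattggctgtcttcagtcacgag
Ifit3: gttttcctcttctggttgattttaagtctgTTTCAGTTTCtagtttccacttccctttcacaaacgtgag
Oas1a: cccctctcggGAAATGGAAACTGAAAatct
Irf1: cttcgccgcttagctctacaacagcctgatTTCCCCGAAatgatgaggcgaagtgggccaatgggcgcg
Irf7 and Ifit3 carry the element in its reverse orientation. The Oas1a and Irf9 promoters also held a GAS, 199 and 99 bases before the start. A match describes these letters and not a bound site.

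A probe set was tested if its highest line mean reached 7.02, the 40th percentile of all values. This held for 9 of the 12 probe sets, of 6 genes. Mx1, Ifit3 and Oas1a were dimmer, and their values are given below without a call. A probe set was called when its Benjamini-Hochberg adjusted p, over 21204 probe sets in 1 limma fit of all lines, was under 0.05. In HAD1 against LAD1, 2 of the 9 tested probe sets were called higher (Ifi27 and Irf7) and 1 lower (Mx2, 1369202_at), where 2.75% of all tested probe sets were called higher, 2.16% lower and 4.91% in either direction. The lines' ranges did not overlap at 2 of the 12 (Irf7 and that Mx2 probe set), against 0.212% of all tested. For ranges, here and below, the shares of all are over the 21204 tested probe sets, while the 12 include the 3 dim ones. In HAD2 against LAD2, 2 were called, both higher (Ifi27 and Mx2 1369202_at), where 3.38% of all were called higher, 2.76% lower and 6.15% either way. Both had ranges that did not overlap, against 2.04% of all. Among arrays labelled AA and ANA, 1 was called (Mx2, 1387283_at), against 3.94% of all. None had ranges apart, against 0.0283% of all. Among arrays labelled P and NP, and among those labelled sP and sNP, 0 were called. There limma called 0.00% of all probe sets, 1275 and 242 had an unadjusted p under 0.05, and limma with array weights called 1682 and 6. Ranges were apart at none of the 12, against 0.00% for P and NP and 0.00472% for sP and sNP. Since the list was made with these contrasts in view, nothing is read from these shares.

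The signs of the differences are likewise a description of a list chosen on these contrasts, and nothing is read from them. Genes with a pair of probe sets count once for each. The difference was positive at 11 of 12 probe sets in HAD1 against LAD1 and at 10 of 12 in HAD2 against LAD2. Some of these were very small, such as 0.0039 for Mx2 1387283_at in HAD1 against LAD1. Medians were 0.09 and 0.13, where those of all tested probe sets were 0.0072 and 0.0093. It was positive at 2 of 12 for P against NP, 4 of 12 for AA against ANA and 6 of 12 for sP against sNP, with medians of -0.06, -0.03 and 0.016, where those of all tested were -0.001, 3e-04 and 0.0036.

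**Figure D1:**
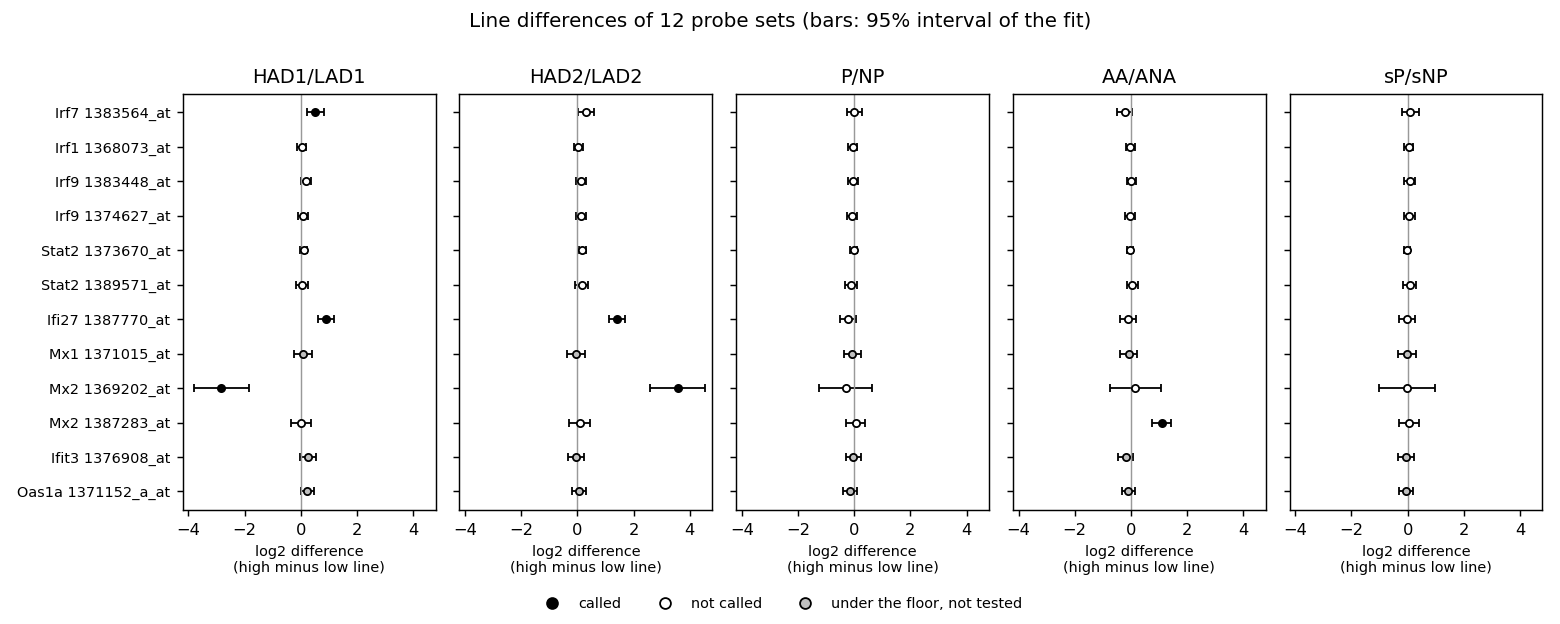
Differences of the 12 probe sets (rows) in each line pair (panels), as log2 of the high minus the low line with the 95% interval of the fit; filled points were called, open points were not, and grey points were under the floor of 7.02. Ifi27 lies right of 0 in both HAD/LAD pairs, at 0.89 and 1.41, and Mx2 1369202_at lies at -2.82 in HAD1/LAD1 and at 3.56 in HAD2/LAD2.

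Among the regulators, Irf7, the interferon-induced factor that amplifies interferon production, separated HAD1 from LAD1. Its signal ran from 7.71 to 8.18 with a median of 7.92 in HAD1, against 7.07 to 7.64 with a median of 7.45 in LAD1. Every HAD1 animal was above every LAD1 animal, and the difference was 0.52 ± 0.15 (SE, 8 and 10 animals). It was 0.54 ± 0.15 without LAD1 animal 37.

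In the second HAD/LAD pair Irf7 ran from 7.55 to 8.19 with a median of 7.67 in HAD2, against 6.94 to 8.57 with a median of 7.33 in LAD2. The lines overlapped. A single LAD2 animal lay above all HAD2 animals, and the next highest LAD2 value, 7.69, was still above the lowest HAD2 values. The difference was 0.31 ± 0.15 (8 and 9 animals) and was not called. Without that animal, LAD2 number 15, it was 0.45 ± 0.14 and was called. HAD2 animal 6, the highest of its line, was at 8.19. With each of the 17 arrays of the pair left out in turn, the difference ran from 0.24 to 0.45. It was called in 1 of the 17, the fit without LAD2 animal 15.

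In the other pairs, as labelled, Irf7 overlapped widely. It ran from 7.67 to 8.96 in P and from 7.48 to 8.67 in NP, and the difference was 0.01 ± 0.14. It ran from 7.94 to 8.81 in arrays labelled AA and from 8.13 to 8.87 in those labelled ANA, a difference of -0.22 ± 0.14. Without the 3 arrays set apart, 8 AA arrays ran from 7.99 to 8.57 and 9 ANA arrays from 8.27 to 8.87, and the difference was -0.30. It ran from 7.81 to 8.36 in sP and from 7.51 to 8.37 in sNP, a difference of 0.09 ± 0.15. None of the 3 was called, and the sign for AA against ANA was opposite to that of the HAD/LAD pairs.

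Irf1, the factor induced by interferon gamma, lay close between lines. It ran from 7.12 to 7.35 in HAD1 and from 7.08 to 7.46 in LAD1, and from 6.65 to 7.32 in HAD2 and from 6.73 to 7.14 in LAD2. Its differences over the 5 pairs ran from -0.05 to 0.04, none of them called, and all the line pairs overlapped.

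Irf9 and Stat2, subunits of the ISRE-binding complex, differed little. The brighter Irf9 probe set (1383448_at) ran from 9.55 to 9.96 in HAD1 and from 9.23 to 9.87 in LAD1, a difference of 0.18 ± 0.09. It ran from 9.57 to 9.99 in HAD2 and from 9.35 to 9.83 in LAD2, a difference of 0.13 ± 0.10. The other Irf9 probe set (1374627_at) gave 0.07 ± 0.09 and 0.13 ± 0.09. These lines overlapped and no difference was called.

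The brighter Stat2 probe set (1373670_at) ran from 9.86 to 10.11 in HAD1 and from 9.71 to 9.98 in LAD1, a difference of 0.10 ± 0.06. It ran from 9.99 to 10.26 in HAD2 and from 9.69 to 10.33 in LAD2, a difference of 0.17 ± 0.06. The second was called when LAD2 animal 15, the highest of its line, was left out (0.22 ± 0.06) and also without LAD2 animal 13. The dimmer probe set (1389571_at) gave 0.05 ± 0.11 and 0.15 ± 0.11, not called. In the other 3 pairs the differences of the 4 Irf9 and Stat2 probe sets lay between -0.10 and 0.07, none called.

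Ifi27, a small hydrophobic protein of intracellular membranes that is strongly induced by interferon alpha, was the effector called in the same direction in both HAD/LAD pairs. In HAD1 it ran from 10.56 to 11.99 with a median of 11.78, against 10.39 to 11.70 with a median of 10.71 in LAD1. Only HAD1 animal 29, at 10.56, and LAD1 animal 37, at 11.70, crossed over: the next lowest HAD1 value was 11.69 and the next highest LAD1 value 11.20. The difference was 0.89 ± 0.15, and it was 1.05 ± 0.14 without HAD1 animal 29 and 0.997 ± 0.14 without LAD1 animal 37.

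In HAD2 Ifi27 ran from 10.66 to 11.36 with a median of 10.83, against 9.13 to 9.88 with a median of 9.45 in LAD2. Every HAD2 animal was above every LAD2 animal, and the difference was 1.41 ± 0.15. LAD2 animal 15, the highest of its line for Irf7, was at 9.85 for Ifi27, among the other LAD2 animals.

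Outside the HAD/LAD lines Ifi27 was close within each pair as labelled. It ran from 11.43 to 12.35 in P and from 11.31 to 12.97 in NP (-0.22 ± 0.14), from 12.34 to 12.63 in AA and from 12.50 to 12.87 in ANA (-0.10 ± 0.14), and from 12.51 to 12.79 in sP and from 12.46 to 12.84 in sNP (-0.02 ± 0.15). None was called. Without the 3 arrays set apart the AA minus ANA difference was -0.11.

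**Figure D2:**
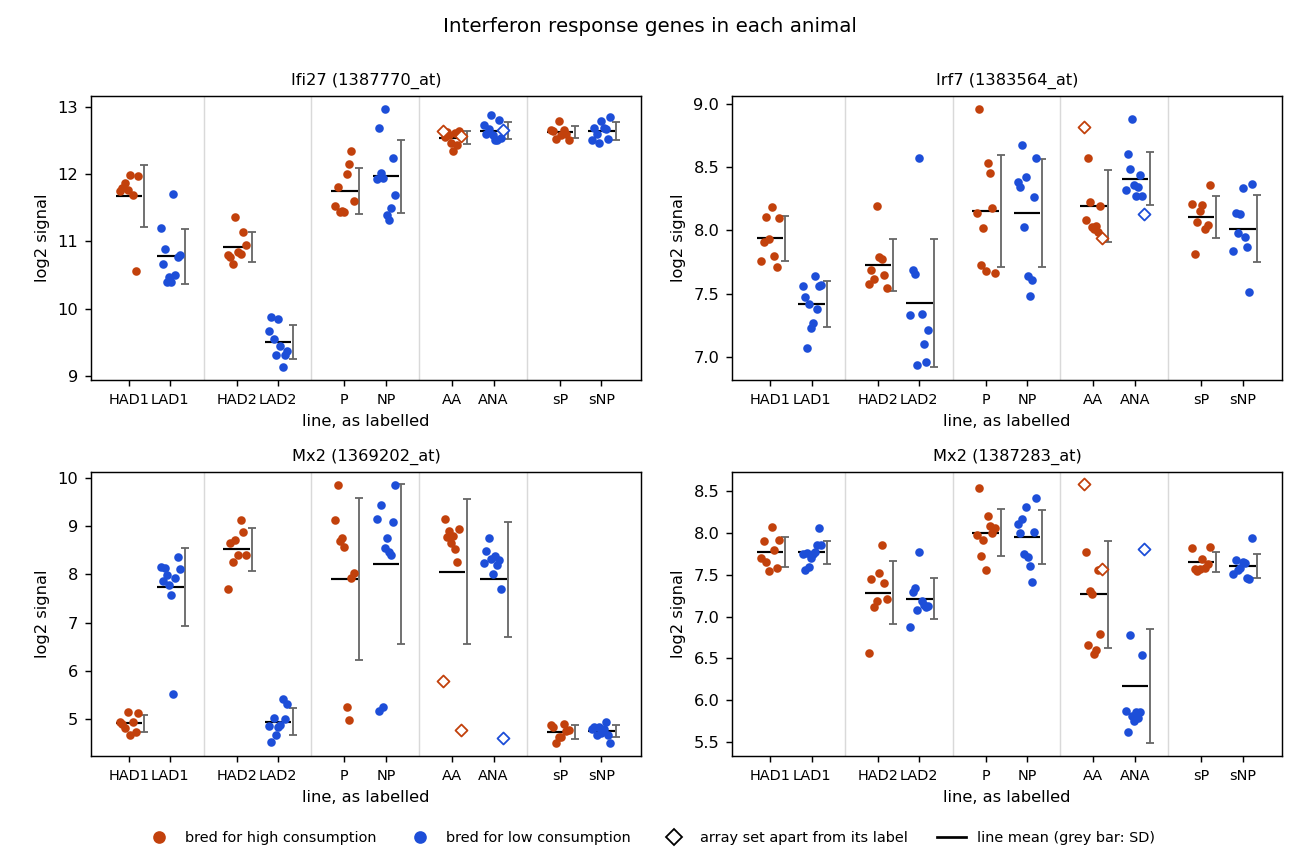
Log2 signal (y axis) of Ifi27, Irf7 and both Mx2 probe sets in each animal, by line as labelled (x axis); orange points are lines bred for high and blue points lines bred for low consumption, black lines are line means, grey bars SD, and open diamonds the 3 arrays set apart from their label. Irf7 does not overlap between HAD1 and LAD1, Ifi27 does not overlap between HAD2 and LAD2, and Mx2 1369202_at has no value between 5.80 and 7.56.

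Mx2, an interferon-induced dynamin-like GTPase that blocks viruses, had 2 probe sets that behaved differently. Mx1 and Mx2 are similar copies, so which copy gave a signal is uncertain. At probe set 1369202_at the animals fell into separate states: 42 of 91 lay between 4.50 and 5.80, 49 between 7.56 and 9.86, and none between. All 8 HAD1 animals were low, from 4.67 to 5.15 with a median of 4.92. In LAD1, animal 37 was low at 5.51, and the other 9 ran from 7.56 to 8.35 (line median 7.95). The signal of this probe set was therefore lower in HAD1, by a difference of -2.82 ± 0.48, or -3.07 ± 0.48 without LAD1 animal 37. The low state lies under 7.02, so the probe set passed the floor only through lines with high animals. The sequence under its probes was not examined, so its signal is not read as an amount of transcript.

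The direction was opposite in the second pair. All 8 HAD2 animals were high, from 7.70 to 9.13 with a median of 8.53, and all 9 LAD2 animals low, from 4.53 to 5.42 with a median of 4.89. The difference was 3.56 ± 0.50. All 17 sP and sNP animals were low, with values from 4.50 to 4.95.

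In the remaining lines both states occurred. Of 9 P animals, 2 were low (the lowest at 4.98), and of 10 NP animals 2 were low (the lowest at 5.16). Of the arrays labelled AA and ANA, 2 of 10 and 1 of 10 were low, and these were AA animal 1 at 5.80, AA animal 19 at 4.79 and ANA animal 20 at 4.61, the 3 arrays set apart. The differences of P against NP, AA against ANA and sP against sNP were -0.30 ± 0.47, 0.16 ± 0.46 and -0.01 ± 0.50, none called. These SEs use the spread pooled over all 10 lines, while the SDs within sP and sNP were 0.14 and 0.13. Without the arrays set apart AA minus ANA was 0.49.

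The other Mx2 probe set, 1387283_at, gave no such split. It ran from 7.55 to 8.07 in HAD1 and from 7.56 to 8.06 in LAD1, and from 6.56 to 7.85 in HAD2 and from 6.88 to 7.78 in LAD2, with differences of 0.00 ± 0.18 and 0.07 ± 0.18. Among the arrays labelled AA it ran from 6.56 to 8.58 with a median of 7.29, against 5.62 to 7.81 with a median of 5.86 in those labelled ANA. The lines overlapped and the difference was 1.10 ± 0.17. Without the arrays set apart it was 1.08, the 8 AA arrays ran from 6.56 to 7.77, and the 9 ANA arrays from 5.62 to 6.79. Differences were 0.06 ± 0.17 for P against NP and 0.05 ± 0.18 for sP against sNP, not called.

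Mx1, the nuclear Mx GTPase in rodents, was dim. It ran from 4.98 to 5.62 in HAD1 and from 4.95 to 5.33 in LAD1, and from 4.98 to 6.11 in HAD2 and from 4.96 to 7.47 in LAD2, where the next highest value was 5.27. Differences were 0.08 ± 0.16 and -0.04 ± 0.16, with lines overlapping. The second was 0.22 ± 0.12 without LAD2 animal 15.

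Ifit3, a protein of the complex that binds viral RNA lacking host cap marks, ran from 5.19 to 5.68 in HAD1 and from 5.04 to 5.65 in LAD1, where the next highest value after animal 37 was 5.23. The difference was 0.25 ± 0.14, and 0.30 ± 0.14 without animal 37. It ran from 4.79 to 5.34 in HAD2 and from 4.76 to 6.32 in LAD2, a difference of -0.06 ± 0.15, or 0.10 ± 0.13 without LAD2 animal 15.

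Oas1a, a synthetase that makes the oligoadenylate activator of RNase L, ran from 6.08 to 6.51 in HAD1 and from 5.89 to 6.28 in LAD1, a difference of 0.24 ± 0.12. It ran from 5.63 to 6.15 in HAD2 and from 5.52 to 6.41 in LAD2, a difference of 0.05 ± 0.12, or 0.13 ± 0.12 without LAD2 animal 15. The highest HAD2 value, 6.15, came from HAD2 animal 6. For Mx1, Ifit3 and Oas1a the difference without the highest HAD2 animal is not given here. In P, AA and sP against their paired lines the differences of Mx1, Ifit3 and Oas1a lay between -0.18 and -0.01. All 3 genes overlapped between the lines of every pair, and with no floor on dim signals none was called in any pair.

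A single LAD2 animal, number 15, stood out across the interferon genes. It was the highest of its line at 8 of the 12 probe sets and at 25 of 73 tested probe sets of other pathway genes (34.2%), while it was highest at 8.34% of all tested probe sets. The following values were chosen after they were seen. Cxcl11, a chemokine for activated T cells, was 8.87 in this animal, against a median of 5.21 and a maximum of 5.55 in the other 8 LAD2 animals. Rsad2, or viperin, was 11.69, against a median of 9.03 and a maximum of 9.23. Mx1 was 7.47, against a median of 5.04. These gaps were wider than the whole spread of the other LAD2 animals.

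Further genes of the response were raised in the same animal. The ubiquitin-like modifier Isg15 was 8.85, against a maximum of 7.67 in the others, and its protease Usp18 was 10.01, against 8.59. Ifit2, a relative of Ifit3, was 10.60, against 9.50, and Ifit3 was 6.32, against 4.98. The receptor-transport protein Rtp4 was 9.002, against 8.09, Irf7 was 8.57, against 7.69, and Oas1a was 6.41, against 5.85. Of the 20 probe sets with the widest gap between this animal and the next highest LAD2 animal, over the whole array, 3 belonged to the listed genes (Mx1, Ifit3 and Irf7) and 12 to the other pathway genes. The listed genes have 12 and the other pathway genes 113 of the 31042 probe sets compared. The other 5 were Slfn4, Ddx60, Irgm2, Ch25h and Rig1. Ifi27, both Irf9 probe sets and Mx2 1369202_at were not highest in this animal, as the plot of HAD2 and LAD2 animals shows for Ifi27. Mx2 1369202_at was 4.84 in it, where the line median was 4.89. Irf1 was highest in it by little, at 7.14, against 7.11 in the next LAD2 animal.

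**Figure D3:**
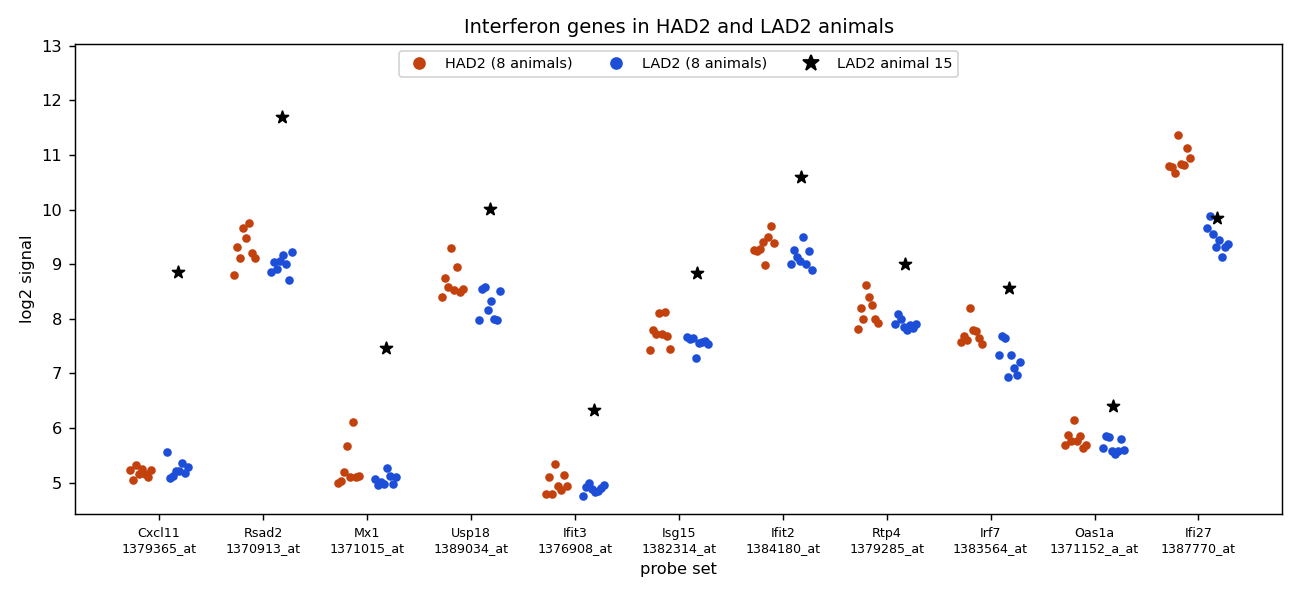
Log2 signal (y axis) of 11 interferon-related probe sets (x axis) in 8 HAD2 animals (orange), 8 LAD2 animals (blue) and LAD2 animal 15 (star). The star lies above all other points at 10 of the 11, by the widest gap for Cxcl11 (8.87, with the other LAD2 animals at 5.55 or lower), and within the LAD2 animals for Ifi27 (9.85).

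Of the 8 cell type marker lists, 7 had a mean in LAD2 animal 15 within the range of the other LAD2 animals, and the meningeal list lay under it. The mean over 9 microglial genes was 8.30 in it, against 8.07 to 8.33 in the other LAD2 animals, and that over 10 endothelial and pericyte genes was 9.38, against 9.35 to 9.48. The mean over 8 blood and leukocyte genes was 6.75, against 6.64 to 6.86. Over 6 meningeal and fibroblast genes it was 7.62, under the 7.74 to 7.99 of the others. Its Gapdh 3'-minus-5' signal of 2.93 and its array median of 7.75 were the lowest of LAD2, and the part of these in the result was not tested.

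Within the other lines, the animal that was highest at most of the 12 probe sets held 3 to 9 of them. Here sNP animal 9 held 7, while it was highest at 14.7% of all tested probe sets, and HAD2 animal 6 held 6 (10.2% of all). HAD1 animal 26 (7.77% of all) and NP animal 10 (21.1% of all) held 5 each, as did LAD1 animal 37 (14.5% of all), which lay nearer HAD1. AA animal 1, one of the arrays set apart, held 9 (26.8% of all), and its microglial mean was 9.29, against 8.49 to 8.92 in the other AA animals. Its dopamine neuron mean was 12.03, against 12.07 to 12.75. In sNP animal 9 the 6 meningeal and fibroblast genes averaged 10.57, against 8.21 to 9.56 in the other sNP animals, and the 8 blood and leukocyte genes 7.24, against 6.64 to 7.07. Its endothelial and pericyte mean was 9.96, against 9.6001 to 9.85, and its astrocyte mean 12.88, against 12.27 to 12.66. Its neuron mean was 12.13, under the 12.23 to 12.38 of the others. The part of these in the interferon signals of both animals was not tested. HAD2 animal 6 lay within the range of the other HAD2 animals for the microglial (8.15), endothelial (9.46), blood (6.82) and meningeal (7.83) genes. Its neuron mean of 11.85 lay just above their range of 11.60 to 11.84, and the part of this was not tested.

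Co-variation within a line does not use the difference between lines. Irf7 was set against the brightest probe set of each of the other 8 genes within HAD1, LAD1, HAD2 and LAD2. Of these 32 relations 25 were positive. By permutation of the pairings (exact under 10 animals, 100000 resamples at 10, 2-sided, adjusted over the 32), 7 were called by Pearson's r, 0 by Spearman's rho, and 10 had an unadjusted p under 0.05 by Pearson's r. Without LAD2 animal 15, and without the 2 animals of each line farthest from the median of Irf7, 0 were called. The relations of Ifi27 in HAD1 and of Irf9 and Oas1a in HAD2, 3 of the 7, do not include LAD2 animal 15, and for them only the adjustment changed. Leaving out 2 animals of a line also leaves just 6 to 8.

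Ifi27 rose with Irf7 among HAD1 animals, with r = 0.68 (permutation p = 0.00496, adjusted 0.0410) and rho = 0.93 (p = 0.00223, adjusted 0.0714). In LAD2 r was 0.80 (permutation p = 0.00513, adjusted 0.0410) and rho 0.87 (p = 0.00451, adjusted 0.0721), and r stayed at 0.80 without animal 15 (p = 0.0178, adjusted 0.143). In LAD1 r was 0.52 and rho 0.58, and in HAD2 r was 0.69 and rho 0.33, neither called by permutation (adjusted p = 0.251 and 0.183 for r). Leaving out the 2 farthest animals gave r = 0.88 in HAD1, 0.82 in LAD1, 0.04 in HAD2 and 0.80 in LAD2. Oas1a was positive in all 4 lines, with r from 0.17 to 0.91, and was called in HAD2 and LAD2 (permutation, adjusted p = 0.0465 for r in each, 0.280 for rho in each). There r fell to 0.54 and 0.44 without the 2 farthest animals.

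**Figure D4:**
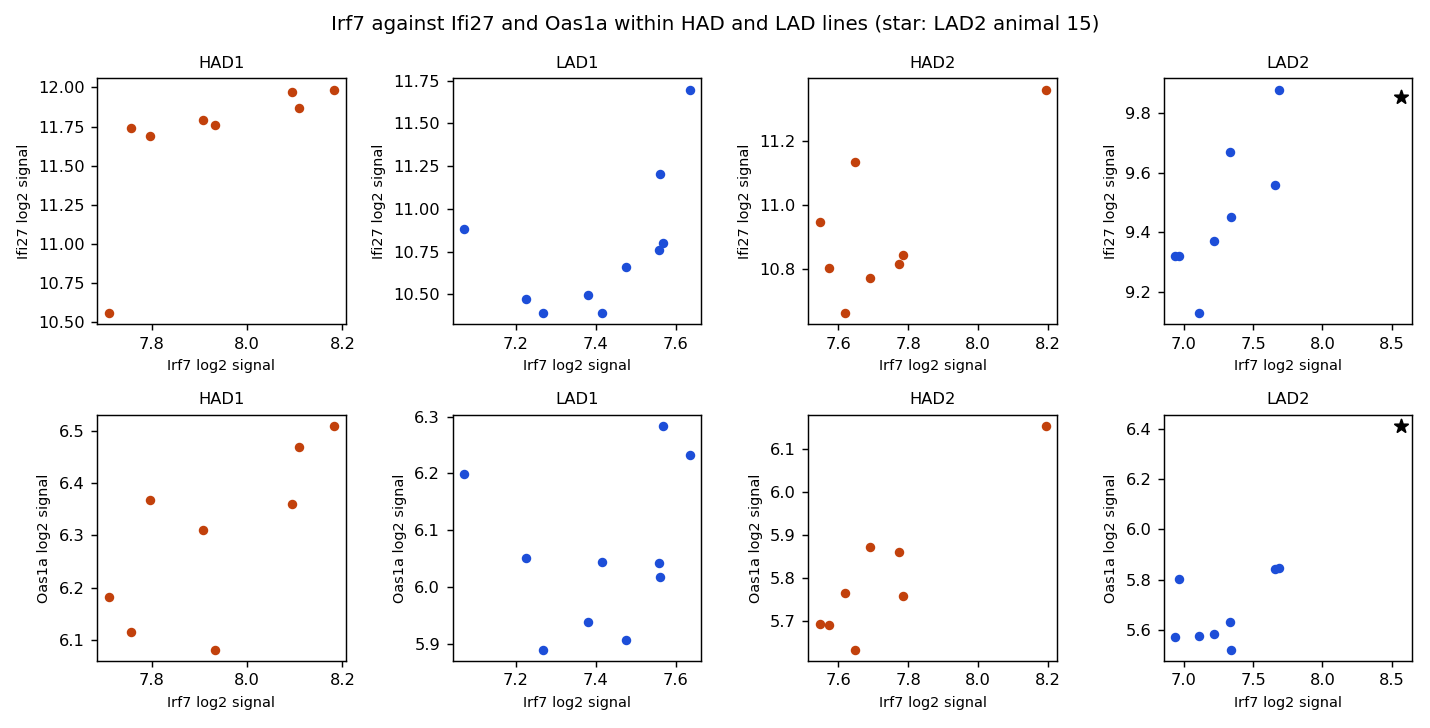
Log2 signal of Irf7 (x axis) against that of Ifi27 (upper row) and Oas1a (lower row), 1 point per animal, within HAD1, LAD1, HAD2 and LAD2 (columns); the axes differ between panels and the star is LAD2 animal 15. In HAD2 a single animal lies far right at 8.19 for Irf7, and in LAD2 the star does so at 8.57.

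The probe sets whose pattern over animals was most like that of Irf7 were largely interferon genes. Over the 35 HAD and LAD arrays, after each line's mean was subtracted, 15162 tested single-gene probe sets were ranked by Pearson's r with Irf7. The first 10 were Rtp4 (0.87), Usp18 (0.87), Isg15 (0.84), Rsad2 (0.79), Ifi44 (0.75), Parp14 (0.71), Rig1 (0.70), Irgm2 (0.70), Txlna (0.66) and Ifit2 (0.65). Of these, 7 were on the list of other pathway genes, which held 73 of the 15162 probe sets ranked. Without LAD2 animal 15 the same r were 0.78, 0.74, 0.67, 0.55, 0.54, 0.45, 0.46, 0.47, 0.55 and 0.33. These arrays share their line's processing and depth of signal, and the values are a description.

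The other pathway genes were 113 listed symbols, of which 81 genes had a probe set and 73 probe sets of 57 genes were tested. This list too was made with earlier results of these data known. The adjusted p-values of its genes, within and between pairs, are therefore given as a description. In HAD1 against LAD1, 2 rose and 2 fell (5.48% called, against 4.91% of all). The nuclear body protein gene Sp110 rose: it ran from 8.63 to 9.36 in HAD1 and from 8.40 to 9.02 in LAD1 (0.32 ± 0.10, adjusted p = 0.0368 by limma). Trim25, a ubiquitin ligase that activates the RNA sensor RIG-I, rose, with values from 9.39 to 9.78 in HAD1 and from 9.09 to 9.62 in LAD1 (0.29 ± 0.08, adjusted p = 0.00906 by limma). Each of these ranges overlapped.

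The fallen genes were a receptor and a secreted protein. Ifnlr1, the receptor chain specific to type III interferons, ran from 5.21 to 5.68 in HAD1 and from 5.76 to 6.55 in LAD1, without overlap (-0.86 ± 0.16, adjusted p = 3.365e-05 by limma). Both lines lie under 7.02, and Ifnlr1 passed the floor through another line. Lgals3bp, a secreted galectin-binding glycoprotein, ran from 7.32 to 8.02 in HAD1 and from 7.56 to 8.35 in LAD1 (-0.37 ± 0.11, adjusted p = 0.0281 by limma).

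In HAD2 against LAD2, 4 rose and 0 fell (5.48%, against 6.15% of all). Irgm, an interferon gamma-induced GTPase, ran from 6.98 to 7.76 in HAD2 and from 6.40 to 6.91 in LAD2, without overlap (0.86 ± 0.13, adjusted p = 6.287e-07 by limma). Lgals3bp ran from 7.21 to 8.13 in HAD2 and from 7.06 to 7.502 in LAD2 (0.45 ± 0.11, adjusted p = 0.00408). Sp110 rose by 0.44 ± 0.10 (adjusted p = 0.00125) and Trim25 by 0.27 ± 0.08 (adjusted p = 0.0172), with overlapping ranges.

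Sp110 and Trim25 were called higher in both HAD and LAD pairs. The difference between the pairs, tested in the same fit as HAD1/LAD1 minus HAD2/LAD2, was -0.12 for Sp110 and 0.02 for Trim25 (adjusted p = 0.863 and 0.990 by limma). It was called for Irgm (-0.98, adjusted p = 8.426e-05), for Lgals3bp (-0.82, adjusted p = 9.839e-05), which fell in HAD1 and rose in HAD2, and for Ifnlr1 (-0.79, adjusted p = 0.0181).

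By role, the receptors had 1 call in HAD1/LAD1 (of 11 tested probe sets) and 0 in HAD2/LAD2. The kinases and STATs (6), the other interferon regulatory factors (4), the nucleic acid sensors and adaptors (7) and the negative regulators (7) had 0 calls in both pairs. Of all tested probe sets 4.91% and 6.15% were called, so nothing is read from 0 calls in groups this small. An unadjusted p under 0.05 by limma was found at 2911 and 3176 probe sets in all. The other induced antiviral effectors (37) had 2 higher and 1 lower in HAD1/LAD1 and 3 higher and 0 lower in HAD2/LAD2. That was 8.11% called in each pair, with medians of 0.03 and 0.05. Among the interferon ligands, 3 genes had a probe set and none reached the floor.

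Among arrays labelled AA and ANA, 3 pathway probe sets were higher and 2 lower (6.85%, against 3.94% of all). Ifnar2, a chain of the type I interferon receptor, ran from 8.11 to 9.23 in AA and from 8.04 to 8.62 in ANA (0.48 ± 0.10, adjusted p = 6.14e-04 by limma). Nmi rose by 0.36 ± 0.09 and Cmpk2, a mitochondrial nucleotide kinase, by 0.23 ± 0.07 (adjusted p = 0.00798 and 0.0253). The kinase Jak2 was lower, at -0.24 ± 0.07, as was the RNA-editing enzyme Adar, at -0.15 ± 0.05 (adjusted p = 0.0437 and 0.0367). Ifnar2, Nmi, Cmpk2 and Adar each had other tested probe sets, none of which was called, and the called Nmi probe set had means of 6.57 in AA and 6.203 in ANA, both under 7.02. Without the 3 arrays set apart 6 were called. In P against NP and in sP against sNP limma called 0 of the 73.

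Other cell types were measured by the same fit. Of 8 tested microglial genes, 0 were higher and 1 lower in HAD1/LAD1, and 1 was higher and 0 lower in HAD2/LAD2. The mean over all 9 measured ones ran from 8.57 to 8.79 in HAD1 and from 8.52 to 8.89 in LAD1, and from 8.02 to 8.54 in HAD2 and from 8.07 to 8.33 in LAD2. Of 10 endothelial and pericyte genes, 1 was higher and 1 lower in HAD1/LAD1, and 2 were higher and 2 lower in HAD2/LAD2. Of all tested probe sets 4.91% and 6.15% were called in these pairs. Of 4 tested blood and leukocyte genes and of 6 meningeal and fibroblast genes limma called 0 in both pairs. The meningeal and fibroblast genes had a median difference of 0.34 in HAD2/LAD2, the highest of the 8 marker lists there, and of -0.03 in HAD1/LAD1. Their mean ran from 7.78 to 8.82 in HAD2, with a median of 8.03, and from 7.62 to 7.99 in LAD2, with a median of 7.802. The part of this in the HAD2 minus LAD2 differences of the interferon genes was not tested. Of 5 oligodendrocyte genes limma called 1, higher in HAD1, and the dopamine neuron, other neuron and astrocyte genes had 0 calls. All 8 list means overlapped between HAD1 and LAD1 and between HAD2 and LAD2. In a tissue piece, fewer cells of a type and less RNA per cell cannot be told apart.

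Genes next to the listed ones on the chromosome were also examined, since lines that fixed different haplotypes can differ at neighbouring genes. The 5 nearest genes with a tested single-gene probe set on each side gave 105 probe sets of 80 genes. In HAD1/LAD1, 4 were called (3.81%, against 4.91% of all). Pank1, a pantothenate kinase gene 6 genes from Ifit3, was 0.40 ± 0.12 higher and the transporter gene Slc16a12, 4 genes from it, lower (-0.76 ± 0.19; adjusted p = 0.0405 and 0.00677 by limma). Sh3bgr, 12 genes from Mx1 and 14 from Mx2, was lower (-0.93 ± 0.24, adjusted p = 0.00690 by limma). The lysosomal channel gene Tpcn1, 15 genes from Oas1a, was 0.29 ± 0.08 higher (adjusted p = 0.00936).

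In HAD2/LAD2, 2 neighbours were called (1.90%, against 6.15% of all). Tpcn1 was again higher (0.28 ± 0.08, adjusted p = 0.0151 by limma). Ripk4, a kinase gene 8 genes from Mx1 and 6 from Mx2 in the annotation, was 0.54 ± 0.14 higher (adjusted p = 0.00724). No tested neighbour of Ifi27 or Irf7 was called in either pair, where 4.91% and 6.15% of all tested probe sets were called. An unadjusted p under 0.05 by limma was found at 2911 and 3176 probe sets over the array.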

How the data were processed

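RNA from the ventral tegmental area of 91 rats was hybridised to Affymetrix arrays, 1 per animal. The deposited log2 values of 31099 probe sets come from RMA, as the submitters' processing notes name it; neither its version nor which arrays were normalized together is given in these sources. Per the labels' protocols, total RNA was amplified in 2 cycles. No depth exists for arrays, and their number limits the precision. The value file had 0 columns without a sample.

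The listed genes, the pathway and marker lists and the tests were chosen with earlier results of these data known. Gene names follow the platform annotation. After removal of 57 control probe sets, the 21204 whose highest line mean reached 7.02, the 40th percentile over the value file, were tested. They entered 1 limma fit (lmFit, eBayes) with a mean for each of 10 lines and 81 residual degrees of freedom, 2-sided, Benjamini-Hochberg adjusted. Labels name animals, so p-values measure the spread between animals within lines. That spread is 1 value per probe set, pooled over all 10 lines, and not that of the compared lines alone. No 2 arrays held identical values.

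Named were all listed probe sets, up to 4 called pathway probe sets per direction and pair, called neighbours, and the 10 probe sets most like Irf7. The animal-by-animal values of LAD2 animal 15 were chosen after seeing the data. Arrays were set apart by clustering their quantiles into 5 sets, a number that was chosen. Animal numbers shared by P and NP, and by sP and sNP, were not taken as pairs in the main fit. Correlations of same-numbered deviations ran from -0.69 to 0.67 in P and NP (median 0.23, over 0.1 in 6 of 9). In sP and sNP they ran from -0.40 to 0.30 (median -0.16, over 0.1 in 1 of 8). So few correlations cannot settle whether the animals were paired.

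Alternatives were no floor, a floor of 8.58, the 60th percentile, centring, joint quantile normalization of the 91 arrays, fits of single pairs, a robust prior with an intensity trend, weighted arrays, 1 probe set per gene, the 5 sets as terms, a fold of 1.5, a replicate block and each array left out; co-variation without LAD2 animal 15 was added after seeing the data. Background correction could not be varied from RMA values. The fit and the permutation test were tested on simulated data. Promoters came from RefSeq (GRCr8). Versions were R 4.3.3, limma 3.58.1, data.table version 1.17.8, matplotlib 3.10.9, scipy 1.17.1, pandas 2.3.3, numpy 2.4.6 and Python 3.11.15.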

Additional observations from a re-analysis of the deposited data

Results flagged for a closer look

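Single animals lay far from the rest of their line, by Dixon's ratio of gap to range, at 17 of 120 combinations of line and listed probe set. The cut-off has a nominal rate of about 1 in 20 for independent normal values. These combinations share animals, and Mx2 1369202_at falls into separate states, so no excess is read from the count. Of the 17, 4 came from LAD2 animal 15. That animal was the highest of its line for Mx1 (7.47), Oas1a (6.41), Ifit3 (6.32) and Irf7 (8.57). HAD2 animal 6 was the highest of its line for Irf7 (8.19) and Oas1a (6.15). LAD1 animal 37 was low for Mx2 1369202_at (5.51) and high for Ifit3 (5.65). ANA animal 20, one of the arrays set apart, was low for Mx2 1369202_at (4.61) and high for Mx2 1387283_at (7.81). sNP animal 9 was high for Mx1 (5.76) and Mx2 1387283_at (7.94). The others were a low Ifi27 in HAD1 animal 29 (10.56), a low Stat2 1389571_at in P animal 10 (8.58), the P animal with the least Th, and a high Mx1 in HAD1 animal 27 (5.62), Oas1a in sP animal 3 (6.15) and Ifit3 in P animal 2 (6.5).

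The HAD1 minus LAD1 difference departed from the HAD2 minus LAD2 difference at 4 probe sets. The test of the difference itself called Irgm (-0.98), Lgals3bp (-0.82) and Ifnlr1 (-0.79). For Mx2 1369202_at it was -6.38 and was not tested, since the gene was listed with both contrasts known: every HAD1 animal was below every LAD1 animal and every HAD2 animal above every LAD2 animal.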

How the results depend on the processing

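The called differences of Ifi27, Irf7 and Mx2 kept their sign and call in each alternative in which their probe set was tested and without any 1 array, except that a required fold of 1.5 removed the call of Irf7 in HAD1/LAD1 (0.52), with Ifi27 at 0.87 to 0.96 in HAD1/LAD1 and 1.319 to 1.41 in HAD2/LAD2 over the alternatives. A floor of 8.58 left 4 listed probe sets tested, of which 1, 1 and 0 were called in HAD1/LAD1, HAD2/LAD2 and AA/ANA, and 3 pathway probe sets were called in AA/ANA. With 1 probe set per gene, Mx2 1369202_at was not tested, 1 listed probe set was called in HAD2/LAD2, and 2 pathway probe sets in AA/ANA, with 427, 605 and 326 calls in all over the 3 pairs. With a fold of 1.5 besides, 1, 1 and 0 pathway probe sets and 293, 346 and 185 in all were called. Each pair fitted alone gave 7 pathway calls in HAD1/LAD1, 2 in AA/ANA and 381 in all in AA/ANA. Array weights gave 7 pathway calls in HAD2/LAD2 and 9 in AA/ANA, with 1698 in all in HAD1/LAD1, 1948 in AA/ANA, 1682 in P/NP and 6 in sP/sNP. The cause of these shifts was not tested. No relation with Irf7 was called after quantile normalization (0), without the 2 farthest animals (0), or without LAD2 animal 15 (0).

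Leaving out 1 array at a time, listed probe sets called were 3 to 3 in HAD1/LAD1, 2 to 4 in HAD2/LAD2 (4 without LAD2 animal 15) and 1 to 1 in AA/ANA, and pathway probe sets 2 to 5, 3 to 6 and 2 to 6. All probe sets called were 888 to 1345, 1146 to 1357 and 685 to 1198, with 0 to 1 in P/NP and 0 to 0 in sP/sNP. Pathway calls dropped to 2 in HAD1/LAD1 without HAD1 animal 21 or 22 or LAD1 animal 33 or 38, and to 2 or 3 in AA/ANA without ANA animal 8 or 16 or AA animal 9, 11, 13 or 15. With the animal number as a replicate block, P/NP and sP/sNP had 0 calls, as without it. No paired analysis was possible for the other pairs because their lines share no animal numbers.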
